A study of Mus musculus with 14 samples.

Results

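Cadherins and protocadherins were taken as every gene whose symbol is Cdh or Pcdh followed by a number alone. This rule gave 34 of the 31054 genes counted in each library. By family, 5 were type I classical cadherins, 13 type II classical cadherins, 6 atypical cadherins, 3 delta-1 protocadherins, 5 delta-2 protocadherins, and 2 (Pcdh12 and Pcdh20) fell outside these families. The clustered protocadherins, whose symbols carry letters, are not members and are described only as a companion list. The rule uses symbols alone, though the family was picked with earlier results of these data known.

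Classical cadherins bind the same or a related cadherin on a neighboring cell through their outermost extracellular repeat, and their tails bind catenins that link the junction to actin. Type II cadherins are known for combinatorial expression that sorts motor neuron pools and brainstem nuclei, and N-cadherin (Cdh2) for the adhesion of migrating and epithelial neural cells. The nonclustered delta protocadherins are weaker adhesion molecules whose tails bind regulators of actin and of N-cadherin turnover, and they are often restricted to particular nuclei and circuits. Pontine nuclei (PN) neurons are born in the rhombic lip, migrate around the hindbrain in a tangential stream, and settle in the ventral pons, where they relay cortical input to the cerebellum.

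Single-cell RNA sequencing was done on 14 libraries of TdTomato-positive cells, in which Atoh1 Cre had switched on a Rosa lsl-tdTomato reporter, so that Atoh1-lineage cells carried the label. Control animals were Atoh1 Cre/+ and mutant animals were Atoh1 S193A/-, all of the C57BL/6J strain and all with the reporter; since Cre replaces the coding region of Atoh1, the controls also lacked a functional copy, and the mutants had the hypomorphic S193A allele as their remaining copy. At E14.5 and at E18.5, whole hindbrains of 3 control and 3 mutant embryos gave 1 library per embryo, and each mutant was collected with a control littermate. At P5, the PN were dissected from pooled control pups and gave 2 libraries. The lineage label also marks granule cells, unipolar brush cells, cerebellar nuclear neurons and other rhombic lip derivatives, and each library held some cells of other kinds.

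Libraries held 108239001 to 236964126 unique molecular identifiers (UMIs, counts of single captured transcripts), and 3248 to 8726 cells per library were kept, at a median of 12010.5 to 20922 UMIs per cell. Levels are UMIs of a gene per 1000000 UMIs of all genes (CPM) summed over the cells of a class in a library, so they can be compared between classes for a gene but not between genes. Atoh1 itself was at 28.6 to 137 CPM in the control and 31.7 to 144 CPM in the mutant embryonic libraries; the S193A allele is still transcribed, so this level does not check the genotype labels. Cells were grouped by clustering without any of the members, and each class is called "-like" after marker genes. Clusters left unnamed held 46.59% of the cells at E14.5, 17.83% at E18.5 and 4.81% at P5. Both libraries of E14.5 litter 2 stood apart from the other litters in class shares: migrating neuron-2-like cells made up 8.83% of the control and 7.73% of the mutant library of that litter, against 2.09% to 2.83% in the other 4 libraries.

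Members were spread over many classes, and 19 of the 34 reached a mean of 50 CPM in at least 1 named class of control libraries. Cdh16 and Cdh17, which are best known from kidney and gut, stayed under 1 CPM in every class. Cdh16 peaked at 0.148 CPM in dorsal rhombic lip or roof plate-like cells of E14.5 and Cdh17 at 0.5 CPM in PN3-like neurons of P5. Cdh1, the epithelial E-cadherin, was at most 1.79 CPM on average. Cdh19 peaked at 2.17 CPM in oligodendrocyte lineage-like cells of P5, Cdh26 at 2.26 CPM in ependymal or choroid plexus-like cells of E14.5, and Cdh22 at 26.9 ± 24.6 CPM (SD, n = 2) in inhibitory neuron-like cells of E18.5, so these 3 members stayed low or varied widely between libraries. Microglia-like cells at P5, which should lack neuronal adhesion genes, were taken as a measure of background, whose source (free RNA, remaining doublets or low expression) was not tested. Cdh8 was at 10.6 and 2.74 CPM in the 2 libraries there, Pcdh19 at 23.1 and 5.72, and Pcdh10 at 22.3 and 8.21. The same genes in PN-like neurons of those libraries were at 134 and 116 CPM for Cdh8, 158 and 158 for Pcdh19 and 197 and 177 for Pcdh10.

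**Figure D1:**
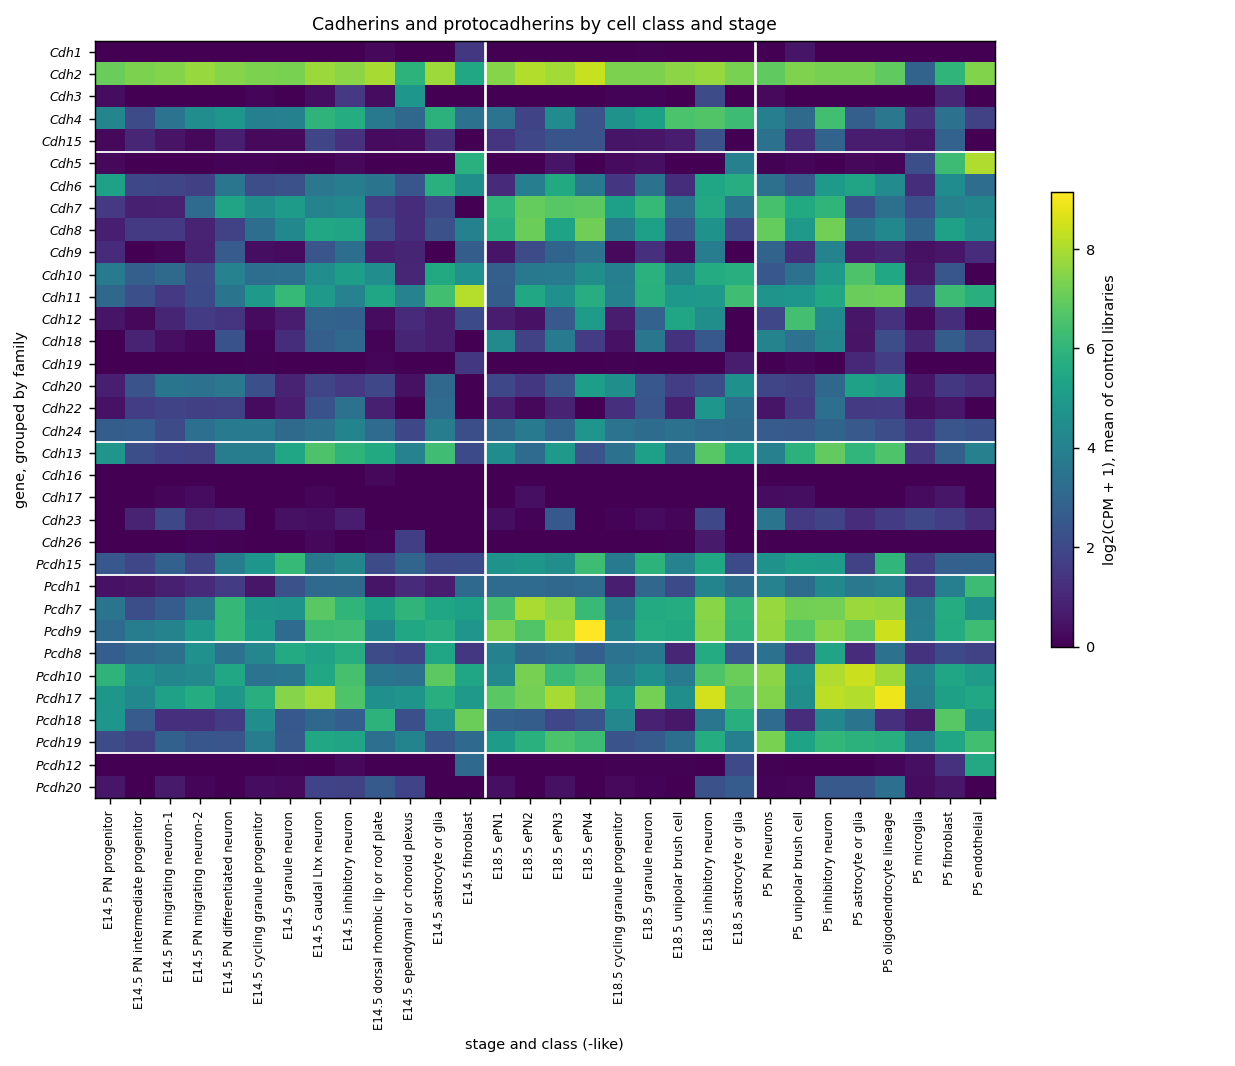
Mean level of each of the 34 members (y axis, grouped by family) in 30 classes of control libraries (x axis, by stage), as log2(CPM + 1) in color. Cdh2 was high in nearly every class and low in P5 microglia-like cells (6.6 CPM), whereas Cdh5 and Pcdh12 were highest in endothelial-like cells (262 and 44.9 CPM, 1 library).

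The developing PN lineage at E14.5 was described along its labeled states, from progenitor-like to differentiated neuron-like cells, with no test between states. Among type I cadherins, Cdh2 was high throughout, at 130.3 ± 8.53 CPM (SD, n = 3 control libraries, as for all E14.5 values in this paragraph) in progenitor-like cells and 179.7 ± 8.9 CPM once neurons were differentiated. Cdh4 (R-cadherin) was lowest in intermediate progenitor-like cells, at 3.33 ± 1.75 CPM. The first migrating state had 10.1 ± 1.85 CPM of Cdh4, the second 21.4 ± 4.6 CPM, and the differentiated class 26.7 ± 5.45 CPM. Progenitor-like cells, at 17.1 ± 2.47 CPM, thus had more Cdh4 than the state that follows them.

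Several members were high in progenitor-like cells and lower in the intermediate progenitor-like and migrating states. Cdh6, a type II cadherin of early neural compartments, was at 30.0, 60.3 and 20.6 CPM in the progenitor-like cells of the 3 control libraries and at 3, 1.98 and 1.88 CPM in migrating neuron-2-like cells. Pcdh18, a delta-2 protocadherin, was at 28.6, 22.2 and 29.2 CPM in progenitor-like and 1.51, 0.591 and 2.16 CPM in migrating neuron-1-like cells. Cdh13 (T-cadherin, which is anchored by a lipid and has no catenin-binding tail) was at 23.7, 41.9 and 13.3 CPM in progenitor-like and 0.599, 2.34 and 4.22 CPM in migrating neuron-2-like cells. For all 3 genes the values of the progenitor-like and the migrating cells did not overlap. The genes were picked on these libraries, and the share of all genes without overlap was not counted. In differentiated neuron-like cells Cdh6 was at 10.8, 13.5 and 8.78 CPM and Cdh13 at 11.2, 13.5 and 15.9 CPM, above every library of the migrating states, and Pcdh18 was at 2.69, 1.87 and 1.4 CPM.

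Other members were highest in the differentiated neuron-like cells. Cdh7 was at 1.14, 0.591 and 0.617 CPM in the first migrating state (migrating neuron-1-like), 9.59, 8.47 and 6.57 CPM in the second and 50.5, 14.46 and 52.7 CPM in the differentiated class. The delta-1 protocadherin Pcdh7 went from 2.27, 8.27 and 5.55 CPM in migrating neuron-1-like to 76.1, 50.4 and 74.8 CPM in differentiated neuron-like cells. Pcdh9, of the same family, went from 12.1, 23.6 and 13 to 41.5, 106 and 55.5 CPM. In the differentiated class, control library 2 was the low one for Cdh7 and Pcdh7 and the high one for Pcdh9. Pcdh8 (arcadlin) and Pcdh17 peaked earlier, in migrating neuron-2-like cells, at 23.6 ± 7.33 and 49 ± 5.67 CPM, compared with 9.8 ± 1.61 and 27.7 ± 4.8 CPM in differentiated neuron-like cells. Cdh20, a type II cadherin, was at 0.716 ± 0.67 CPM in progenitor-like cells and between 9.9 and 11.3 CPM in the migrating and differentiated states.

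The next comparison asked how members changed in control PN-like neurons from E14.5 to E18.5. E14.5 control libraries 1 and 2 carry Cell Ranger version 3.1.0 and the E18.5 libraries 5.0.1. Stage and software version therefore cannot be fully told apart, here or in all sorted cells. The fit with 5.0.1 libraries alone leaves E14.5 control library 3 as the only library of its stage. Of the 34 members, 23 were detected in 10% or more of the class at a stage and were tested, and most of these rose: 13 were called higher at E18.5 and 2 lower (edgeR adjusted p under 0.05 and absolute log2 change over 0.25). Over all 11254 genes tested, 31.1% were called higher and 24.5% lower. The median log2 change was 1.15 over the 23 members and 0.062 over all genes tested. By family, 3 of 3 delta-1 and 4 of 5 delta-2 protocadherins rose, as did 5 of 9 tested type II cadherins, 1 of 3 atypical and 0 of 3 type I cadherins, while 1 type I and 1 type II cadherin fell.

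Cdh8 and Pcdh19 had the largest increases. Cdh8, a type II cadherin known from retinal circuits, was at 1.79, 0.466 and 4.95 CPM in the 3 E14.5 control libraries and at 79.8, 74.4 and 76.5 CPM in the 3 E18.5 libraries (log2 change 4.37 ± 0.26 (SE), edgeR adjusted p = 8.87e-08). Pcdh19, the X-linked delta-2 protocadherin known for female-limited epilepsy, was at 4.71, 5.6 and 2.61 CPM and then at 71.7, 48.4 and 68.1 CPM (log2 change 4.01 ± 0.22 (SE), edgeR adjusted p = 4.88e-08). The values of the 2 stages did not overlap for either gene, and without E14.5 control library 3 the log2 change of Cdh8 was 5.74. Pcdh17, a delta-2 protocadherin of axon and synapse assembly, rose from 22.2, 30.8 and 30.2 to 166, 171 and 186 CPM (log2 change 2.54 ± 0.13 (SE), edgeR adjusted p = 2.49e-08), again without overlap.

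The 2 members that fell, of the 23 tested, were Cdh20 and Cdh4. Cdh20 was at 13.2, 8.4 and 12.4 CPM at E14.5 and 3.86, 4.08 and 4.37 CPM at E18.5 (log2 change -1.62 ± 0.22 (SE), edgeR adjusted p = 5.02e-05). Cdh4 was at 25.6, 32.7 and 21.9 CPM and then 11, 10.4 and 11.9 CPM (log2 change -1.29 ± 0.16 (SE), edgeR adjusted p = 2.28e-05). For both genes every E14.5 library was above every E18.5 library. Cdh10 was also called lower with DESeq2, with the other size factor and without E18.5 control library 3, and both Cdh10 and Cdh24 without E14.5 control library 3 and at the finer clustering, which made 4 members lower. With no filter on low genes Cdh10 and Cdh22 were called lower too, and with the unnamed PN-like clusters added Pcdh8 was.

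The promoters of the members with the largest rise and the largest fall in this comparison are shown because Atoh1 is a basic helix-loop-helix factor, a class that binds the E-box CANNTG. Each sequence is the 250 bases before the transcription start in RefSeq (GRCm38.p6), 5′ to 3′ on the strand of the gene, with CANNTG matches in capitals. They are Cdh8 at chr8:99416472-99416721 (minus strand), Pcdh19 at chrX:133688994-133689243 (minus strand) and Cdh20 at chr1:104768270-104768519 (plus strand).
Cdh8: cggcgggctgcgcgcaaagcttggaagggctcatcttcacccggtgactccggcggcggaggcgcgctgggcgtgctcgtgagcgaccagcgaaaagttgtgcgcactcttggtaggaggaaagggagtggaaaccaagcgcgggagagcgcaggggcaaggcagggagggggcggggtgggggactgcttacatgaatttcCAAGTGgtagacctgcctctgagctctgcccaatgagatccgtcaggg
Pcdh19: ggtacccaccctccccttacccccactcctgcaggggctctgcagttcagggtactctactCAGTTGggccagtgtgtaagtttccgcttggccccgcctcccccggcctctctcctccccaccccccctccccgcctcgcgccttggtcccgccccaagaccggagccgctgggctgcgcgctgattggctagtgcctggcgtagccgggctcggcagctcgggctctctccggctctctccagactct
Cdh20: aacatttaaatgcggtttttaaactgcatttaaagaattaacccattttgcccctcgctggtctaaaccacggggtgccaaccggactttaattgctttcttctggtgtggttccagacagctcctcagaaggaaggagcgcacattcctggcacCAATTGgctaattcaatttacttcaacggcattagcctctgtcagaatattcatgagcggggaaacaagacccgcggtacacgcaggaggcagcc
Each held 1 match, CAAGTG starting 48 bases before the start of Cdh8, CAGTTG 189 bases before that of Pcdh19 and CAATTG 95 bases before that of Cdh20. CANNTG reads the same on both strands, so both were searched at once, and overlapping matches were allowed. RefSeq promoters were found for 22 members, with 25 promoters in all, of which 13 (52.0%) had at least 1 match, against 66.22% of all 32851 promoters of the same length. A match is a description of the letters and does not show binding.

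Other delta protocadherins rose by smaller amounts. Pcdh7 went from 76.1, 50.4 and 74.8 to 173, 162 and 204 CPM (log2 change 1.28 ± 0.14 (SE), edgeR adjusted p = 9.17e-06) and Pcdh9 from 41.5, 106 and 55.5 to 189, 170.2 and 193.02 CPM (log2 change 1.42 ± 0.23 (SE), edgeR adjusted p = 0.000205). Pcdh1 rose by a log2 change of 1.85 ± 0.30 (SE), edgeR adjusted p = 0.000227. Pcdh10 (OL-protocadherin) was at 18.6, 81.6 and 28.5 CPM at E14.5 and 101, 71.6 and 91.8 CPM at E18.5, and its groups overlapped, with control library 2 of E14.5 the high one (log2 change 1.13 ± 0.35 (SE), edgeR adjusted p = 0.0145). The same library was high for Pcdh15, an atypical cadherin known from hair-cell tip links, at 7.85, 26.6 and 5.88 CPM at E14.5 against 29, 20.9 and 29.1 CPM at E18.5 (log2 change 1.28 ± 0.37 (SE), edgeR adjusted p = 0.0105). The calls for Pcdh10 and Pcdh15 were lost with DESeq2 and without E14.5 control library 1 or 3, with adjusted p up to 0.203 and 0.212. Without E14.5 control library 2 the log2 changes were 1.73 and 1.91, without library 3 they were 0.89 and 0.75, and at a finer clustering 2.00 and 2.31. The call for Pcdh18 (log2 change 1.28 ± 0.34, SE) was lost without E14.5 control library 3 (adjusted p = 0.0856 in edgeR).

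Type II cadherins that rose were, besides Cdh8, Cdh18, Cdh11, Cdh7 and Cdh6. Cdh11, known from mesenchyme and growing axons, went from 6.96, 14.9 and 9.71 to 26, 24.7 and 23.3 CPM and Cdh6 from 10.8, 13.5 and 8.78 to 25.8, 23.4 and 19.4 CPM, both without overlap between stages. Log2 changes were 1.61 ± 0.26 for Cdh18, 1.21 ± 0.19 for Cdh11, 1.15 ± 0.26 for Cdh7 and 1.02 ± 0.17 for Cdh6 (SE), with edgeR adjusted p of 0.00023, 0.000168, 0.0023 and 0.00028. Cdh2, at 182, 169.8 and 187 and then 216, 231 and 257 CPM, did not pass the test (log2 change 0.28 ± 0.12 (SE), edgeR adjusted p = 0.069), although all 3 E18.5 values lay above the E14.5 values. The E14.5 class did not include a PN-like cluster with Hoxa5 and Hoxb5 that stayed unnamed, whereas the E18.5 class included Hoxb5-expressing ePN3-like neurons. With every unnamed PN-like cluster added at each stage, a choice made after seeing the data, 14 of 23 members were called higher and 3 lower, against 33.6% and 28.0% of all genes.

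**Figure D2:**
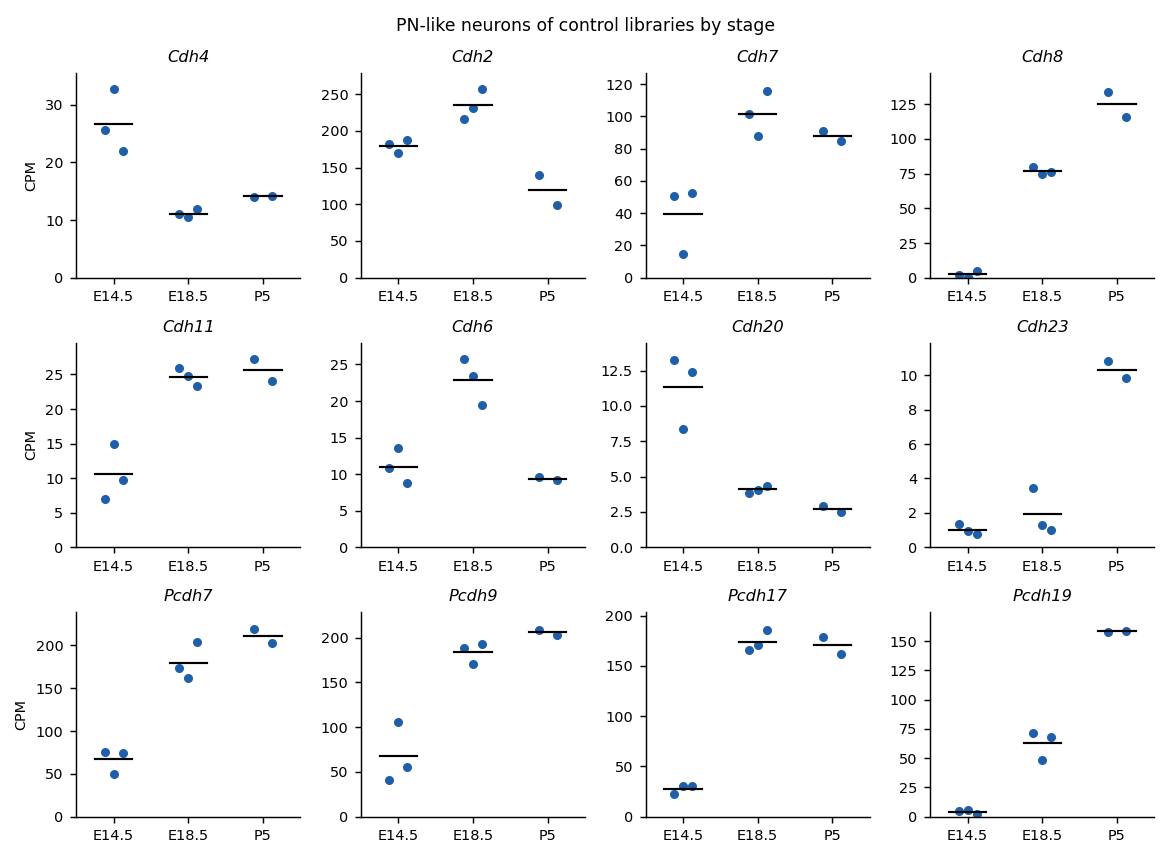
Level in CPM (y axis) of 12 members in PN-like neurons of control libraries at E14.5, E18.5 and P5 (x axis); each point is a library and each bar the mean of a stage (3, 3 and 2 libraries). Cdh8, Pcdh17 and Pcdh19 stepped up between E14.5 and E18.5, Cdh4 and Cdh20 stepped down, and Cdh23 was high only at P5 among these stages (10.3 CPM).

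From E18.5 to P5, 9 of the 23 members were called higher and 4 lower in PN-like neurons, against 27.0% and 27.3% of all genes tested, and the median log2 change was 0.241 over the members and -0.019 over all genes. The P5 libraries came from dissected PN and the E18.5 libraries from whole hindbrain, so stage and dissection cannot be told apart. Cdh23, an atypical cadherin and the tip-link partner of Pcdh15, was at 3.45, 1.27 and 0.989 CPM at E18.5 and 10.8 and 9.83 CPM at P5 (log2 change 2.70 ± 0.31 (SE), edgeR adjusted p = 1.66e-05, and 3.34 without E18.5 control library 1). Cdh15 (M-cadherin, best known from muscle) was at 0, 5.35 and 3.71 CPM and then 9.4 and 10.1 CPM (log2 change 1.74 ± 0.47 (SE), edgeR adjusted p = 0.00721). The P5 values of both genes lay above every E18.5 value, but the call for Cdh15 was lost with DESeq2 and without P5 library 2 (adjusted p up to 0.398).

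Pcdh19 went on rising, to 158 and 158 CPM (log2 change 1.40 ± 0.15 (SE), edgeR adjusted p = 8.30e-06), and Pcdh10 reached 197 and 177 CPM (log2 change 1.16 ± 0.33 (SE), edgeR adjusted p = 0.00908). Cdh8 reached 134 and 116 CPM (log2 change 0.78 ± 0.18 (SE), edgeR adjusted p = 0.00275). By contrast, Pcdh17, at 179 and 162 CPM, had an estimate near 0 (log2 change 0.046 ± 0.12 (SE), edgeR adjusted p = 0.762). The calls for Pcdh10 and Cdh8 were lost with DESeq2 (adjusted p up to 0.114 and 0.22 over the alternatives), and that for Pcdh10 also without P5 library 1. Pcdh1 and Cdh18 rose by 1.04 ± 0.20 and 0.65 ± 0.19 (log2, SE), and Pcdh18 and Cdh4 by 0.86 ± 0.23 and 0.40 ± 0.15. The calls for Cdh18, Pcdh18 and Cdh4 did not hold without 1 of the libraries (adjusted p up to 0.117, 0.0793 and 0.133): P5 library 2 for Cdh18, P5 library 1 for Pcdh18, and any E18.5 or P5 library for Cdh4.

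The members that fell after E18.5 were Cdh10, Cdh6, Cdh2 and Cdh24. Cdh6 dropped from 25.8, 23.4 and 19.4 to 9.56 and 9.14 CPM (log2 change -1.19 ± 0.15 (SE), edgeR adjusted p = 3.77e-05), after its rise between E14.5 and E18.5. N-cadherin (Cdh2) went from 216, 231 and 257 to 140.0 and 99.4 CPM (log2 change -0.90 ± 0.14 (SE), edgeR adjusted p = 0.00013). Neither gene overlapped between the stages. Cdh10 went from 10.2, 9.17 and 13.1 to 5 and 4.08 CPM (log2 change -1.22 ± 0.20 (SE), edgeR adjusted p = 0.000234), a call that did not pass at a finer clustering (log2 change -0.49, adjusted p = 0.055). Cdh24 changed by -0.75 ± 0.24 (log2, SE), and its call was lost without E18.5 control library 3 or either P5 library (adjusted p up to 0.117).

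In all sorted cells of control hindbrain, 6 of 25 members tested rose and 6 fell between E14.5 and E18.5, close to the 25.0% and 24.2% called among 14396 genes. The median log2 change was -0.202 over the members and 0.006 over all genes. The counts moved with the cell filter. At a mitochondrial limit of 10%, 7 of 25 members rose and 9 fell, against 28.6% and 26.9% of all genes. With all deposited barcodes 7 rose and 9 fell, against 28.0% and 26.4% of all genes. In such sums, fewer cells of a type and less RNA per cell cannot be told apart. Cdh20 rose, from 4.55, 2.96 and 4.41 to 14.53, 11.9 and 12 CPM (log2 change 1.61 ± 0.19 (SE), edgeR adjusted p = 0.00066), although it fell in PN-like neurons. In cycling granule progenitor-like cells Cdh20 was at 3.52, 3.24 and 4.2 CPM at E14.5 and 25.3, 20.5 and 22.5 CPM at E18.5, and the share of this class in control libraries was 6.16%, 2.61% and 7.4% at E14.5 and 23.5%, 22.8% and 20.1% at E18.5; the part of these cells in the rise was not tested. Cdh7 rose from 15.8, 12.4 and 22.8 to 46.5, 38.9 and 61.6 CPM (log2 change 1.44 ± 0.26 (SE), edgeR adjusted p = 0.00318). Cdh10 and Pcdh15 rose by 0.78 ± 0.15 and 0.74 ± 0.092 (log2, SE). Pcdh8, which was at 33.1, 29.6 and 21.7 CPM, fell to 9.82, 10.2 and 10.4 CPM (log2 change -1.54 ± 0.15 (SE), edgeR adjusted p = 0.000383), and Cdh13 fell from 31.1, 45.7 and 37.7 to 17.6, 19.5 and 24.6 CPM (log2 change -0.97 ± 0.18 (SE), edgeR adjusted p = 0.00397). The calls for Cdh8 and Pcdh20 (0.90 and -1.63 log2) were lost when only libraries of Cell Ranger 5.0.1 were used, and those for Cdh11, Cdh6, Cdh9 and Pcdh18 (0.34, -0.68, -1.09 and -0.42 log2) when single libraries were left out (at least 4 of the 6 in turn for each), with adjusted p up to 0.0897, 0.0625, 0.142, 0.136, 0.133 and 0.125 in that order.

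Within the E18.5 PN-like neurons, members differed between the ePN-like subtypes, which are described without a test because the subtypes are clusters of these cells. Cdh6 was at 0.789, 1.73 and 1 CPM in ePN1-like and 55.9, 41 and 40.8 CPM in ePN3-like neurons of the 3 control libraries. Cdh18 was at 18.2, 16.5 and 25.1 CPM in ePN1-like and 2.03, 4.42 and 0.897 CPM in ePN2-like neurons. Pcdh10 was at 22.9, 17.3 and 15.4 CPM in ePN1-like and 180.2, 119 and 164 CPM in ePN2-like neurons. ePN2-like neurons were thus high in Pcdh10 and low in Cdh18, and ePN1-like neurons the opposite. Cdh8 was at 144, 149 and 113 CPM in ePN2-like and 39.7, 35.1 and 41.3 CPM in ePN3-like neurons, whereas Pcdh9 was at 98.2, 93.7 and 108 and 233, 197 and 261 CPM. None of these pairs overlapped between the classes. The pairs were picked on these same libraries, and the share of all genes without overlap was not counted.

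At P5, 23 members reached 5 CPM in at least 1 library of a PN subtype, and for 21 of them the same subtype was highest in both libraries. For 14 of the 23, both values of the highest subtype lay above every value of the other 5 subtypes. The ratio of the highest to the lowest subtype mean was at least 2 for 20 members and was 1.16 for Pcdh1, 1.66 for Pcdh17 and 1.85 for Cdh15. Over all 10992 genes that reached 5 CPM in the same way, the subtype with the highest value was shared by both libraries for 54.8%, stood above every other value for 27.2% and gave a ratio of at least 2 for 13.9%, compared with 91.3%, 60.9% and 87.0% of the 23 members. These shares describe the 2 libraries, with no test, and all genes include those that defined the clusters, which the members did not. The study, however, lists some members among its markers of states or subtypes, found on these libraries. The shares are therefore not independent of how the subtypes were chosen. A gene could also pass the 5 CPM limit through its highest subtype alone, which favors high ratios among weak genes. Cdh12, for example, had a mean of 5.7 CPM in PN1-like and 1.17 CPM in PN2-like neurons. The same limit was used for all genes. Pcdh1, Pcdh17 and Cdh15 were the most even across PN subtypes.

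P5 subtypes differed in which members were highest. In PN1-like neurons Pcdh10 was at 308 and 305 CPM, against 69.9 and 59 CPM in PN3-like neurons, where it was lowest. In PN2-like neurons Cdh8 was at 209 and 187 CPM, against 79.6 and 72.1 in PN4-like neurons. Pcdh19 was also high in PN2-like neurons, at 211 and 238 CPM, but its values overlapped with those of PN4-like neurons (205 and 224 CPM). In PN3-like neurons Cdh18 was at 37.7 and 43.7 CPM, against 5.25 and 4.02 in PN1-like neurons, and Pcdh15 at 36.5 and 44.3 CPM, against 14.3 and 13.8 in PN4-like neurons. Both libraries gave the same order for each of these pairs. The pairs were picked by their levels in these same libraries, so the shared order is not a separate check.

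PN4-like neurons had the highest Cdh13, Cdh23 and Cdh4. Cdh13 was at 27.8 and 26.9 CPM there and at 4.12 and 2.09 CPM in PN5-like neurons, and Cdh23 at 19.1 and 18.8 and 3.65 and 1.98 CPM. Cdh4 was at 22.6 and 22.5 CPM in PN4-like and 7.86 and 6.06 CPM in PN5-like neurons. PN5-like neurons were lowest for all 3 of these and had the highest Pcdh9, at 333 and 335 CPM, and the highest Cdh6, at 25.9 and 24.9 CPM. Cdh6 was at 21.3 and 20.5 CPM in PN6-like and no more than 9.92 CPM on average in the other subtypes. PN6-like neurons had the highest Cdh7, at 179 and 162 CPM against 65.1 and 57.7 in PN2-like neurons, and the highest Pcdh7, at 322 and 282 CPM against 93.3 and 87.1 in PN5-like neurons. Cdh2 was lowest in PN5-like neurons, at 68.9 and 49.8 CPM, and library 1 exceeded library 2 for Cdh2 in each of the 6 subtypes.

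**Figure D3:**
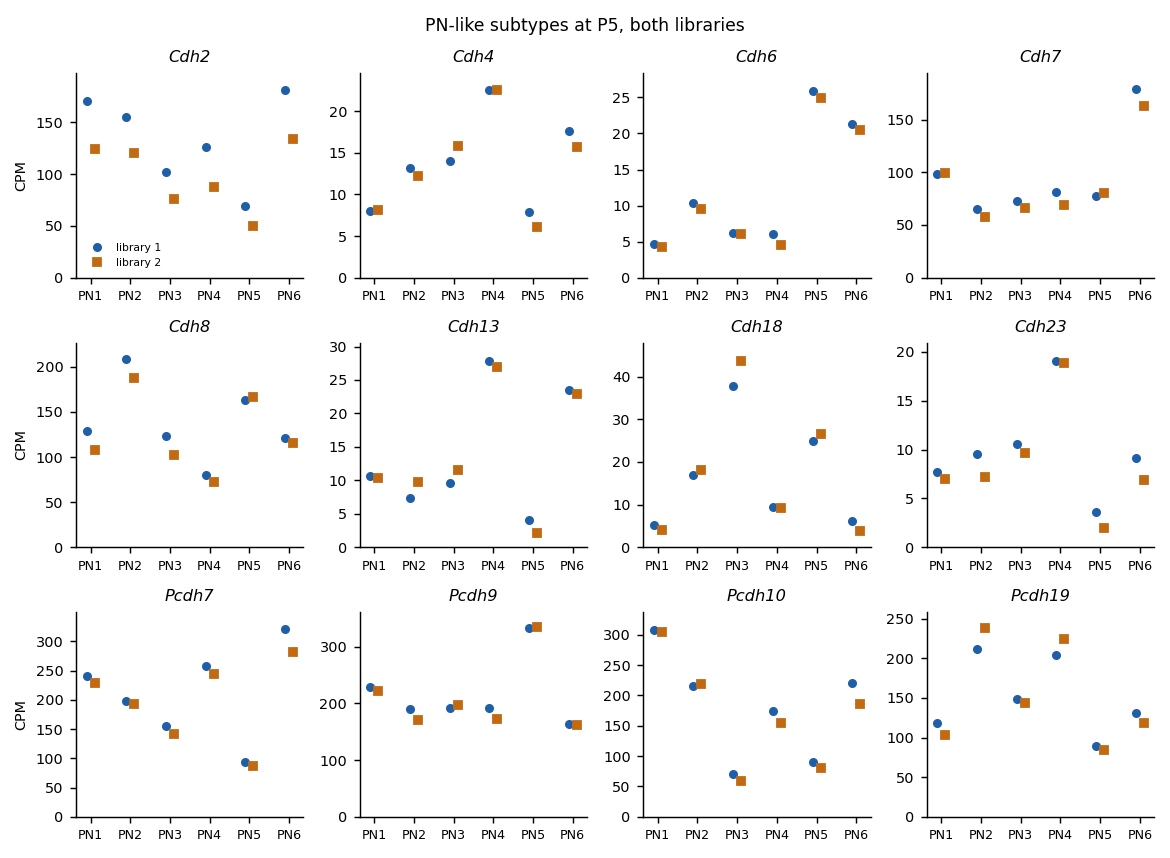
Level in CPM (y axis) of 12 members in the 6 PN-like subtypes of P5 (x axis), with library 1 as circles and library 2 as squares. The libraries had the same highest subtype for the 12 members shown, and for 21 of the 23 members that reached 5 CPM. Cdh15 and Pcdh1, for which the libraries differed, are not shown. For example, Pcdh10 was highest in PN1-like, Cdh18 in PN3-like and Pcdh9 in PN5-like neurons.

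Some patterns recurred in E18.5 and P5 subtypes that share marker genes in the lists used to name them. ePN1-like and PN3-like neurons, whose lists share Prox1, Kctd12, Cdkn1c, Meis2 and Zbtb20, both had the highest mean Cdh18 among the PN subtypes of their stage (19.9 and 40.7 CPM) and the lowest mean Pcdh10 (18.53 and 64.5 CPM). ePN3-like and PN4-like neurons, whose lists share Hoxb5, Hoxc4, Hoxa5 and Robo2, both had, among PN subtypes, the highest mean Cdh4 (20.2 and 22.5 CPM), Cdh13 (28.9 and 27.4 CPM) and Cdh23 (4.75 and 18.9 CPM). They differed for Cdh6, which was highest among E18.5 subtypes in ePN3-like neurons (45.9 CPM) and at 5.32 CPM in PN4-like neurons. The likeness of these subtypes across stages was not tested here.

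Outside the PN, the granule lineage, which forms the most numerous cerebellar neurons, had high levels of several members that were also high in other classes. At E14.5, granule neuron-like cells had Pcdh15 at 64.9, 68.4 and 72.8 CPM, Cdh11 at 70.6, 66.7 and 71 CPM and Pcdh8 at 52.4, 55 and 35.1 CPM in the 3 control libraries. At E18.5, Pcdh8 was at 11.5, 12.3 and 12.4 CPM in this class, and Cdh10 was at 52.3, 56.9 and 59 CPM after 7.44, 6.7 and 12.9 CPM at E14.5. The values of the stages did not overlap for Pcdh8 and Cdh10, but the share of all genes without overlap in this class was not counted. Cdh7, a cadherin of granule cells and the pons, was at 29, 16 and 49 CPM and 68.7, 59.8 and 77.9 CPM.

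Unipolar brush cells, excitatory interneurons of the granular layer, carried Cdh4 and Cdh12. Cdh4 was at 99.3, 103 and 73.7 CPM in unipolar brush cell-like cells of E18.5 and 8.46 and 7.33 CPM at P5, and Cdh12 at 44.7, 34 and 42.1 and 82.9 and 84.8 CPM. Cdh4 was thus lower and Cdh12 higher in the P5 libraries, which come from another dissection. Cerebellar nuclear neuron-like cells of E18.5 had the highest mean of any named class for Cdh4, at 165, 283 and 133 CPM, and for Pcdh17, at 431, 609.9 and 582 CPM. Inhibitory neuron-like cells, which an Atoh1-lineage sort would not be meant to keep, had Cdh13 at 160.3 and 84.8 CPM at P5 and Pcdh8 at 51.1 ± 7.3 CPM (SD, n = 3) at E14.5.

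Glial and other classes also held high levels of some members. Pcdh10 had its highest mean of any named class in astrocyte or glia-like cells of P5, at 336 ± 45.7 CPM (SD, n = 2). In oligodendrocyte lineage-like cells of P5, Pcdh17 was at 488 and 469 CPM, compared with 179 and 162 CPM in PN-like neurons of the same libraries, and Cdh11 at 151 and 128 CPM, compared with 27.2 and 24.1. Cdh20 was at 41.3 and 32.3 CPM in astrocyte or glia-like and 30.9 and 27.2 CPM in oligodendrocyte lineage-like cells but at 2.92 and 2.52 CPM in PN-like neurons. Cdh10 was at 107 and 81.9 CPM in astrocyte or glia-like cells, against 5 and 4.08 CPM in PN-like neurons. Both cadherins, which fell in PN-like neurons, were thus high in glia-like cells of the same dissection.

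Fibroblast-like cells of E14.5, present in 2 control libraries with at least 10 cells, had Cdh11 at 304 and 251 CPM and Pcdh18 at 174 and 96.9 CPM. Pcdh18 was also high in dorsal rhombic lip or roof plate-like cells, at 71.6, 48.4 and 59.5 CPM. Cdh5, the VE-cadherin of endothelial junctions, was at 262 CPM in 48 endothelial-like cells of P5 library 1. It was also at 62.4 and 46.7 CPM in fibroblast-like cells of E14.5 and 85.9 and 68.1 CPM in those of P5, so these clusters held RNA of a gene that marks another class; the part of endothelial cells in them was not tested. Cdh3 (P-cadherin, an epithelial cadherin) reached 19.5, 17.1 and 43.4 CPM in ependymal or choroid plexus-like cells of E14.5.

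The comparison of genotypes asked whether members differed between control and Atoh1 S193A/- littermates. In all sorted cells at E14.5, 26 members were detected in 1% or more of the cells of either genotype, and edgeR without a litter term called 0 of them, as it called 0% of the 14473 genes tested; 0 members had an unadjusted p under 0.05, against 12.9% of all genes, and DESeq2 called 0 members and 3.39% of all genes. At E18.5, edgeR called 0 of 24 members and 0% of 13899 genes, with 2 members (Cdh20 and Pcdh8, 8.33%) at an unadjusted p under 0.05, against 1.83% of all genes, and DESeq2 called 0 members and 0.158% of all genes. Littermate libraries deviated together, so litter was also fitted as a block. With the block, 3 of 26 members were called at E14.5, against 17.5% of all genes, and 0 of 24 at E18.5, against 0.0935%, where 6 members (25.0%) and 7.58% of all genes had an unadjusted p under 0.05. Median log2 changes without the block were -0.064 over members and 0.009 over all genes at E14.5, and 0.063 and -0.001 at E18.5. In litter 1 of E14.5 the study lists a female control and a male mutant, so genotype and sex cannot be told apart in that litter. In litters 1 and 2 of E14.5 the control files carry Cell Ranger version 3.1.0 and the mutant files 5.0.1, so genotype and software version cannot be told apart there. With only the 5.0.1 libraries, which leaves control library 3 alone and assumes that it varied like the others, edgeR without the block called 0 members and 0% of all genes in the sorted cells at E14.5, with 1 of 26 members (Cdh7) and 3.86% of all genes at an unadjusted p under 0.05. In the E14.5 classes this fit also rests on control library 3 alone, so its counts of member tests are not compared with those of all libraries. In simulated data at E14.5, the fit without the block recovered 45% of 2-fold and 2% of 1.5-fold changes.

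The members called with the block at E14.5 were Pcdh18, Cdh7 and Cdh18. Pcdh18 was at 12.2, 9 and 11.9 CPM in control and 21.1, 11.1 and 17.8 CPM in mutant libraries 1, 2 and 3, higher in the mutant of all 3 litters although the groups overlapped (log2 change 0.51 ± 0.12 (SE), edgeR adjusted p = 0.0293 with the block). Beside it, progenitor-like PN cells, in which Pcdh18 was high, made up 2.12%, 1.69% and 1.16% of control and 7.21%, 4.57% and 6.99% of mutant libraries, and dorsal rhombic lip or roof plate-like cells 4.22%, 3.56% and 3.38% and 9.3%, 10.7% and 7.53%; their part in the Pcdh18 level was not tested. Without litter 2, an alternative chosen after seeing the data, Pcdh18 was the 1 member still called (log2 change 0.65 ± 0.093 (SE), edgeR adjusted p = 0.0355 with the block). That fit called 10.4% of all genes. Cdh7 was at 15.8, 12.4 and 22.8 CPM in control and 13.9, 9.7 and 16.5 CPM in mutant libraries, lower in the mutant of all 3 litters (log2 change -0.38 ± 0.085 (SE), edgeR adjusted p = 0.0293 with the block). Beside it, differentiated neuron-like PN cells, in which Cdh7 was high, made up 6.53%, 1.67% and 8.85% of control and 5.59%, 1.11% and 4.67% of mutant libraries, and granule neuron-like cells 6.4%, 2.63% and 7.55% and 5.66%, 2.4% and 5.1%. Both shares were lower in the mutant of 3 of 3 litters, and their part in the Cdh7 level was not tested. Cdh18 was at 4.68, 7.01 and 6.77 and 3.81, 6.17 and 5.21 CPM, also lower in 3 of 3 litters (log2 change -0.33 ± 0.085 (SE), edgeR adjusted p = 0.042 with the block). The control and mutant values of Cdh7 and of Cdh18 overlapped across litters, and without litter 2 their edgeR adjusted p was 0.0899 and 0.107 with the block.

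Within classes, the fits without the block called 0 of 160 tests of a member in 1 of 12 classes at E14.5 and 0 of 165 tests over 11 classes at E18.5, against 0.0270% and 0.0362% of all gene tests. Unadjusted p was under 0.05 in 18 member tests (11.2%) at E14.5, against 3.23% of all gene tests, and in 19 (11.5%) at E18.5, against 4.09%. DESeq2 called 0 member tests at E14.5 and 1 at E18.5, against 0.112% and 0.108% of all gene tests. With the litter block, 4 tests were called at E14.5 (0.488% of all gene tests were) and 3 at E18.5 (0.330%).

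Cdh20 was lower in mutant migrating PN-like neurons at E14.5. In migrating neuron-1-like cells it was at 10.6, 12.4 and 9.26 CPM in control and 3.85, 0 and 2.65 CPM in mutant libraries 1, 2 and 3 (log2 change -1.77 ± 0.37 (SE), edgeR adjusted p = 0.0182 with the block and 0.0668 without). Mutant library 2 held 13 cells of this class and no Cdh20 UMI. Without litter 2, a choice made after seeing the data, the change was -1.68 ± 0.37 (SE), edgeR adjusted p = 0.000483 with the block. That fit rests on fewer libraries and called 1.35% of all gene tests over the classes, against 0.488% with every litter. In litter 1, genotype cannot be told apart from sex or software version. In migrating neuron-2-like cells Cdh20 was at 13.2, 9.02 and 7.5 CPM in control and 2.57, 3.68 and 3.8 CPM in mutant libraries (log2 change -1.43 ± 0.26 (SE), edgeR adjusted p = 0.0414 with the block and 1 without), a call that was lost without litter 2 (adjusted p = 0.289 in edgeR). The genotypes did not overlap in either class. At E18.5, Cdh20 in migrating neuron-like cells was at 1.52, 0.792 and 3.79 CPM in control and 8.12, 5.47 and 7.64 CPM in mutant libraries, the opposite order, and did not pass the test (edgeR adjusted p = 0.488 without and 0.252 with the block). The difference between the stages was not tested.

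In cycling granule progenitor-like cells of E14.5, Pcdh19 was at 13, 13.8 and 13.5 CPM in control and 23.6, 26.1 and 21 CPM in mutant libraries, without overlap (log2 change 0.77 ± 0.11 (SE), edgeR adjusted p = 0.0381 with the block and 0.333 without). Pcdh9 was at 28.1, 37.6 and 30.1 and 39.4, 69.4 and 43.5 CPM, without overlap (log2 change 0.61 ± 0.096 (SE), edgeR adjusted p = 0.046 with the block and 0.89 without). Both were higher in 3 of 3 litters. At E18.5 the member called in this class was Pcdh8, at 9.56, 10.4 and 10.2 CPM in control and 14.49, 16.1 and 16.5 CPM in mutant libraries (log2 change 0.61 ± 0.076 (SE), edgeR adjusted p = 0.00621 with the block and 0.0762 without), which DESeq2 without a block also called (adjusted p = 0.0015).

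In migrating neuron-like PN cells of E18.5, Pcdh9 and Cdh7, which at E14.5 rose along the PN states, were higher in mutants. Pcdh9 was at 45, 43.6 and 48.7 CPM in control and 75.1, 89.3 and 81.4 CPM in mutant libraries (log2 change 0.81 ± 0.16 (SE), edgeR adjusted p = 0.00287 with the block and 0.0535 without). Cdh7 was at 23.6, 19.8 and 25.9 CPM in control and 31.8, 56.5 and 54.7 CPM in mutant libraries (log2 change 0.97 ± 0.22 (SE), edgeR adjusted p = 0.0141 with the block and 0.222 without). Control and mutant values did not overlap for either gene. The class held 70 to 89 cells per control and 37 to 90 cells per mutant library.

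**Figure D4:**
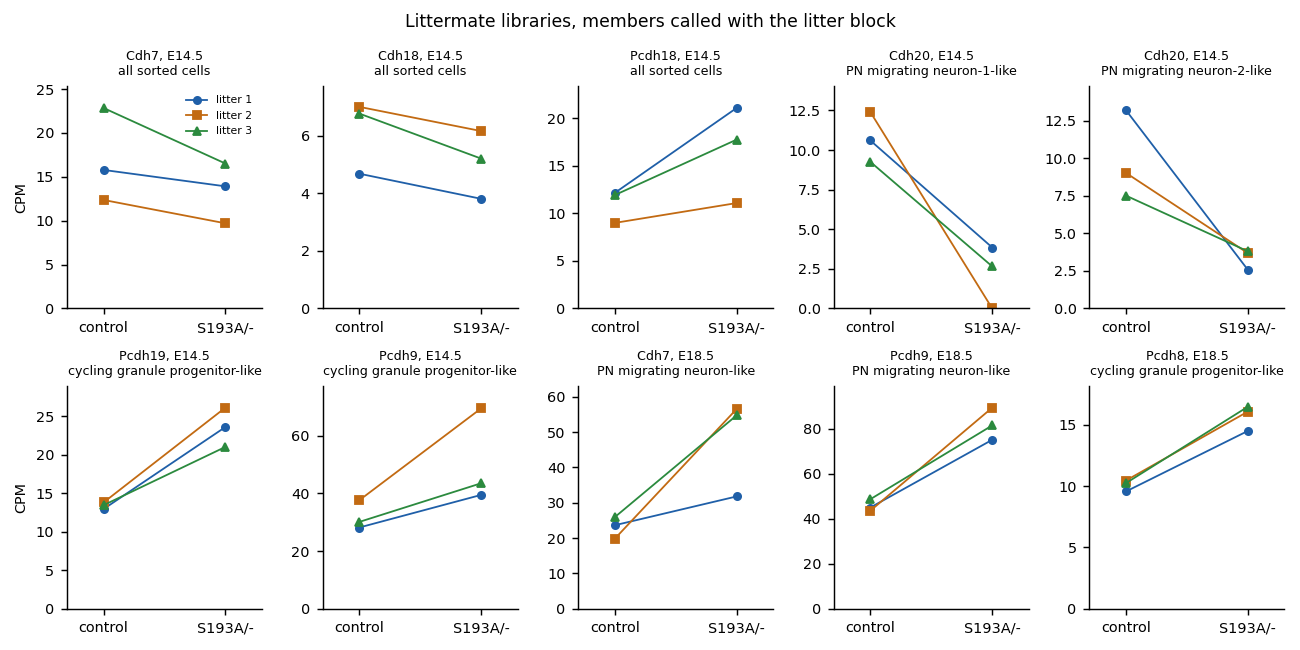
Level in CPM (y axis) of the members called with the litter block, in control and Atoh1 S193A/- libraries (x axis); each line joins the littermates of a litter, and each panel names the gene, the stage and the cells. Cdh20 was lower in mutant migrating PN-like neurons of E14.5 in all 3 litters, and Pcdh9 and Cdh7 were higher in mutant migrating PN-like neurons of E18.5.

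Whether the genotype effect differed between stages was tested as an interaction in all sorted cells of the 12 embryonic libraries. Without a block, 0 of 26 members and 0% of 14753 genes were called by edgeR, 1 member (Pcdh8, 3.85%) and 8.09% of all genes had an unadjusted p under 0.05, and DESeq2 called 0 members and 0.590% of all genes. With litter as a block, 1 member, Pcdh8, was called, against 12.6% of all genes. Pcdh8 was at 33.1, 29.6 and 21.7 CPM in control and 23.4, 31.7 and 21.1 CPM in mutant libraries at E14.5, and at 9.82, 10.2 and 10.4 and 12.4, 12.2 and 13.7 CPM at E18.5. The genotypes overlapped at E14.5 and did not at E18.5 (interaction 0.52 ± 0.13 (SE), edgeR adjusted p = 0.0353 with the block and 0.571 without, higher in mutants at E18.5 relative to E14.5).

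Genes that act with the members were read from lists chosen for their roles. Of 16 catenins and tail partners, 14 were tested in PN-like neurons between E14.5 and E18.5, and 4 rose (Pkp4, Tjp1, Plekha7 and Ctnnd2) while Ctnnb1, beta-catenin, fell. Their median log2 change was -0.084, against 1.15 for the members and 0.062 for all genes, of which 31.1% rose and 24.5% fell. Adam10, a protease that cuts cadherins, fell. Of 21 other genes of the cadherin superfamily, 13 were tested and 11 rose, namely Celsr2 and Celsr3 (planar polarity and axon guidance), Fat1, Fat2, Fat4 and Dchs2 (giant cadherins), Clstn1 and Clstn3 (calsyntenins of synapses and transport), Pcdh11x, Cdhr1 and the receptor tyrosine kinase Ret, with 0 lower and a median of 0.97. Of 57 clustered protocadherins, 23 were tested, 15 rose and 0 fell (median 0.77); 3′ reads of this family can be shared between isoforms that use the same last exons, so counts of a given isoform are uncertain. From E18.5 to P5, when 27.0% of all genes rose and 27.3% fell, 6 of the 13 other superfamily genes rose and 4 fell (median 0.34). In that interval 2 of 23 clustered protocadherins rose and 4 fell (median 0.03), and 2 of 14 catenins and partners rose and 4 fell (median -0.27). In the comparisons of genotypes in all sorted cells, edgeR without the block called 0 genes of these 3 lists at either stage, as it called 0% of all genes. With the block at E14.5, when 17.5% of all genes were called, 5 of 15 catenins and partners were higher and 2 lower in mutants, 3 of 15 other superfamily genes higher and 1 lower, and 0 of 52 clustered protocadherins higher and 3 lower; at E18.5 the block called 0 of them, against 0.0935% of all genes.

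The number of members detected per cell was compared on cells thinned to 5000 UMIs, to take depth out of the count. At E14.5 a control cell held 2.46 ± 0.279 members on average (SD, n = 3 libraries) and a mutant cell 2.46 ± 0.318 (difference mutant minus control -0.0021, exact two-sided permutation p = 1). At E18.5 the values were 2.35 ± 0.301 and 2.44 ± 0.348 (difference 0.0885, exact two-sided permutation p = 0.6). The smallest p that 3 against 3 libraries allow is 0.1. Both differences were smaller than the spread between libraries of a genotype. Within litters, the mutant minus control difference was 0.0012, 0.0764 and -0.0839 at E14.5, and 0.0715, 0.0521 and 0.142 at E18.5, higher in the mutant of 3 of 3 litters. An exact two-sided sign-flip permutation test over the 3 litters gave p = 1 at E14.5 and p = 0.25 at E18.5, where 0.25 is the smallest p that 3 litters allow. Cells under 5000 UMIs were left out, 70 to 154 per control and 57 to 178 per mutant library at E14.5, and 73 to 223 and 65 to 186 at E18.5. Without thinning, a cell held 4.70 to 5.60 members in control and 4.88 to 5.65 in mutant libraries at E14.5, and 4.10 to 5.40 and 4.35 to 4.97 at E18.5.

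Within several classes, in and outside the PN lineage, mutant cells held more members on average than control cells. The number of all genes detected in the thinned cells was not counted. Whether these differences are particular to the members was therefore not tested. Of 11 named classes at E14.5 with 3 libraries per genotype, the mutant was higher in all 3 litters in 6 and lower in all 3 in 0; at E18.5 this held for 3 and 0 of 9. Genotypes did not overlap, with the mutant higher, in progenitor-like (mean 1.64 in control and 1.86 in mutant), intermediate progenitor-like (1.01 and 1.17) and migrating neuron-2-like cells (1.52 and 1.64) of E14.5, and in migrating neuron-like (2.01 and 2.32) and ePN2-like neurons (3.96 and 4.29) of E18.5. The mutant was also higher in 3 of 3 litters, with overlap, in differentiated neuron-like, caudal Lhx neuron-like and cycling granule progenitor-like cells of E14.5 and in granule neuron-like cells of E18.5. In migrating neuron-1-like cells of E14.5 (1.25 and 1.06) and ePN3-like neurons of E18.5 (4.34 and 4.27) the mutant mean was the lower and the mutant was higher in 1 of 3 litters. The same held for astrocyte or glia-like cells of E18.5 (3.43 and 2.94), which had the largest difference of any class, and the mutant mean was also lower in dorsal rhombic lip or roof plate-like cells of E14.5 (2.10 and 2.05) and cerebellar nuclear neuron-like cells of E18.5 (5.41 and 5.36). The classes come from the same libraries, and the class differences, which ranged from -0.188 to 0.242 at E14.5 and from -0.486 to 0.434 at E18.5, were not tested.

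The number of members per thinned cell also varied between classes of control libraries. In the E14.5 PN lineage of controls, it was 0.949 to 1.10 in intermediate progenitor-like and 1.96 to 2.13 in differentiated neuron-like cells. At E18.5 it was 2.5 to 2.99 in ePN1-like, 3.81 to 4.11 in ePN2-like and 4.05 to 4.53 in ePN3-like neurons. At P5 the 6 PN-like subtypes ranged from 3.71 to 5.08. Microglia-like cells gave 0.746 and 0.274, and cerebellar nuclear neuron-like cells of E18.5 5.29 to 5.52. Without thinning, the mean over all kept cells of the 2 P5 libraries was 8.17 and 7.49, against 4.31 and 3.48 with it, which left out 980 and 339 shallower cells.

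**Figure D5:**
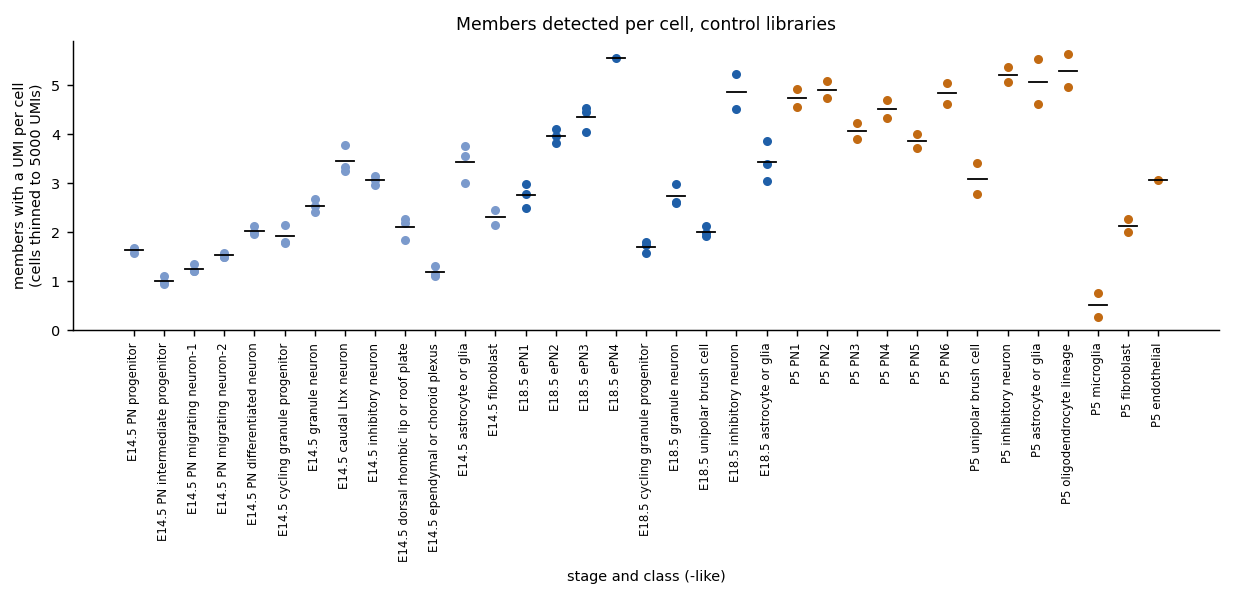
Mean number of members with a UMI per cell thinned to 5000 UMIs (y axis) in classes of control libraries (x axis, by stage); each point is a library and each bar the class mean. PN-like classes ranged from about 1 member in intermediate progenitor-like cells of E14.5 to over 4 in most P5 subtypes, and microglia-like cells had the lowest values (0.746 and 0.274).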

How the data were processed

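Single-cell 3′ libraries (10x v3.1) of sorted TdTomato-positive cells were aligned by the authors with Cell Ranger (version 5.0.1, per the labels; the file headers of 2 E14.5 control libraries give 3.1.0) to mm10 with an added WPRE sequence, and the values deposited are raw counts of UMIs for each gene in each barcode. Cells with at least 1000 genes and under 5% mitochondrial UMIs were kept, and the 7.5% with the highest Scrublet scores in each library were removed as doublets, which left 80250 of 150188 barcodes. Library pairs shared 0.1882% to 0.4843% of their barcodes. Cells of each stage were clustered (scanpy 1.11.5, Python 3.11.15, 2000 variable genes, 30 components, 15 neighbors, Leiden resolution 1.0) without the members, and classes were named from marker lists; limits on marker levels were chosen with the cluster means in view. State and subtype markers of PN cells were found by the study on these libraries.

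Counts were summed per library and class of at least 10 cells and tested by edgeR 4.0.16 (quasi-likelihood F test, TMM, R 4.3.3) over all genes with a UMI in 1% of cells (all sorted cells) or 10% (classes), with Benjamini-Hochberg adjustment and calls at adjusted p under 0.05 and absolute log2 change over 0.25. DESeq2 1.42.0, another size factor, no filter, a litter block, a finer clustering, other cell filters and thinning, 5.0.1 libraries alone and leaving out each library were alternatives. Deviations of same-numbered libraries from their group means correlated at 0.6809 to 0.8178 (E14.5) and 0.7287 to 0.8814 (E18.5), and the labels describe littermates, so litter numbers pair the samples. P-values measure the spread between embryos at E14.5 and E18.5 and between libraries of pooled pups at P5. Members named with values were those called in a comparison, those reaching 50 CPM in a named class of control libraries, those the study lists among state or subtype markers, and the classical markers Cdh1, Cdh2, Cdh3 and Cdh5, 28 of 34 in all; the other 6 are given by their highest class. Members and gene lists were chosen with earlier results of these data known. The tests were tried on simulated data with known changes.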

Additional observations from a re-analysis of the deposited data

Results flagged for a closer look

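The genotype effect on Pcdh8 in all sorted cells differed between E14.5 and E18.5 in the fit with litter as a block, with an interaction of 0.52 on the log2 scale (edgeR adjusted p = 0.0353); 1 of 26 members and 12.6% of all genes were called in that fit. The level was lower in the mutant than in the control littermate in 2 of 3 litters at E14.5 and higher in 3 of 3 at E18.5. At E14.5 the log2 ratios of mutant to control were -0.48, 0.10 and -0.04 in litters 1, 2 and 3, so litter 1 had the largest in size. The study lists a female control and a male mutant for that litter, so genotype and sex cannot be told apart in it. Without the block the interaction did not pass (edgeR adjusted p = 0.571), and without the E14.5 mutant library 1 it was 0.45 (edgeR adjusted p = 0.707, no block). With only the Cell Ranger 5.0.1 libraries it was 0.20 (edgeR adjusted p = 0.964, no block). Pcdh8 was a member with high levels in granule neuron-like cells of E14.5, at 52.4, 55 and 35.1 CPM in control libraries, and the part of class shares in the interaction was not tested.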

How the results depend on the processing

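Counts of members called between genotypes depended on the litter block: 3 in all sorted cells at E14.5, 4 in classes at E14.5, 3 in classes at E18.5 and 1 for the interaction, each against 0 without it. All gene tests called moved with it, from 0% to 17.5%, 0.0270% to 0.488%, 0.0362% to 0.330% and 0% to 12.6% in that order. In all sorted cells at E18.5 the count stayed at 0 with the block. Between E14.5 and E18.5 a block by replicate number joins embryos of different litters, so it is not a litter block. With it, 15 members were still called in PN-like neurons and 12 in all sorted cells, as 5 higher and 7 lower. In all sorted cells Cdh11 lost its call (adjusted p = 0.0765 in edgeR) and Pcdh19 gained one (adjusted p = 0.041 in edgeR). No block was fitted from E18.5 to P5. With the block and without E14.5 litter 2, a choice made after seeing the data, 1 member was called in all sorted cells and 7 tests in classes, against 10.4% and 1.35% of all gene tests. With no filter on low genes the class counts were 3 at E14.5 and 5 at E18.5, against 0.311% and 0.249% of all gene tests. DESeq2 and the other size factor each gave 1 at E18.5, against 0.108% and 0.0380% of all gene tests. Leaving out 1 library at a time gave 0 to 1 in classes at E18.5, while 0.00741% to 0.0682% of all gene tests were called. The 1 was Cdh7 in migrating neuron-like cells without mutant library 1, a fit that called 0.0428% of all gene tests. The difference in members per cell ranged from -0.1725 to 0.1424 at E14.5 and from -0.1094 to 0.2597 at E18.5 when 1 library was left out, which breaks a litter; at E14.5 the sign turned without control library 2 or 3 or mutant library 1 or 3 (0.1291, 0.0129, 0.1424 and 0.0238), and at E18.5 without control library 2 or mutant library 3 (-0.0230 and -0.1094). Leaving out 1 library at a time gave 13 to 17 members called between E14.5 and E18.5 in PN-like neurons (15 with all), 9 to 16 between E18.5 and P5 (13 with all) and 8 to 12 in all sorted cells (12 with all), while 46.5% to 58.0%, 39.9% to 58.3% and 36.8% to 48.6% of all genes were called. A P5 library left alone was assumed to vary like the other control libraries. The causes of these changes were not tested. Single members called in at least 1 fit were followed under the alternatives. Of these values, 856 kept their side of the threshold, 83 passed it where the reported fit had not and 48 no longer passed. Where the reported or the alternative fit passed, 0 changed sign. The direction was not compared where neither passed. With 3 libraries per group, the fit without the block rarely recovered a 1.5-fold genotype change in simulated data (2% at E14.5 in all sorted cells). The simulated libraries did not share litters, so recovery with the block was not tested.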

Other observations

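ePN4-like neurons of E18.5 reached 10 cells in control library 3 alone among controls (18 cells), where Cdh20 was at 34.3 CPM and Cdh2 at 331 CPM. These 18 cells held 5.56 members per cell at 5000 UMIs. Granule neuron-like cells of P5 came from 1 library, in which Cdh10 was at 176 CPM.

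By position, 8 of the 34 members lie on chromosome 8, 5 on chromosome 14 (Cdh24, Pcdh8, Pcdh17, Pcdh20 and Pcdh9) and 5 on chromosome 15 (Cdh6, Cdh9, Cdh10, Cdh12 and Cdh18), in the GRCm38 annotation. Of the chromosome 15 members, Cdh6 and Cdh18 rose in PN-like neurons between E14.5 and E18.5, and Cdh6 and Cdh10 fell between E18.5 and P5, whereas Cdh18 rose again. Members on the same chromosome therefore did not all move the same way.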
